A study of Mus musculus with 14 samples.

Results

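A set of 62 array probes gave a signal above background in every day 14 sample of the microenvironment of an AB1 tumour and in no control sample. They were found by detection p-value, the share of negative control beads on an array that are as bright as the probe. A probe was a member if its detection p was under 0.05 on all 5 day 14 arrays and 0.05 or more on all 3 control arrays. The rule took 62 of the 45281 probes on the array, or 0.137%. The probes were thus chosen by their measured detection p on the day 14 and control arrays, and the difference between these groups is described below with no test. The 6 day 4 arrays played no part in the choice.

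AB1 is a mouse mesothelioma line, a tumour of the lining of the body cavities, that grows in BALB/c mice with an intact immune system. As such a graft grows, the host supplies vessels, fibroblasts and immune cells, and T cells and natural killer cells that enter it release interferon-gamma. That cytokine raises chemokine, antigen presentation and guanylate-binding protein genes, which makes such genes a common readout of immune activity in tumour tissue.

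All samples came from BALB/C mice aged 8 weeks. There were 3 samples of control tissue, 6 of tumour microenvironment taken 4 days after AB1 inoculation and 5 taken 14 days after it. The labels give neither the site of the tissue nor whether it held tumour cells. They do not say that samples came from separate animals either, so the p-values below cover the spread among the samples alone, and part of that spread may be technical. The number of probes detected ranged from 10659 to 11772 on control arrays, from 8257 to 12370 on day 4 arrays and from 7059 to 13867 on day 14 arrays. Day 14 replicate 5, with 7059, and day 4 replicate 2, with 8257, were the lowest of their groups.

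None of the 62 probes was listed in the table that pairs probes with genes, which named 1 gene for each of 6083 other probes. The 62 are therefore unnamed here, and no function is given to any of them. They are identified by Illumina probe number, or by rank in the difference between day 14 and control. ILMN_1251419 and ILMN_2757617, ranks 1 and 2, were named by rule. Every other probe number below was chosen after its values were seen. Several probes can belong to 1 gene, so 62 probes are not 62 independent genes.

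All levels are log2 intensities after background correction and quantile normalisation. On this scale, the lowest value of any detected probe lay between 4.45 and 4.98, depending on the array. Members lay between 4.14 and 4.58 on the control arrays. An undetected probe has a value that cannot be told from background, which does not show that its transcript was missing. In tissue as a whole, fewer cells of a type and less RNA per cell cannot be told apart.

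The 62 probes were very unequal. The fitted difference between day 14 and control had a median of 1.16 on the log2 scale and ran from 0.35 to 7.59, while the median over all 14916 tested probes was 0.01. It was 4-fold or more for 11 probes, 2- to 4-fold for 25 and under 2-fold for 26. Because the controls lie at background, the change of a member is better given as a lower bound. For this, each control value that lay under the detection limit of its array, the lowest value of any probe detected there, was raised to that limit before the means were compared. The bound was at least 2-fold for 29 members, at least 4-fold for 10 and at least 8-fold for 6. These bounds hold for the background-corrected scale alone. The median fitted difference of 1.16 was 0.416 with no background correction and 0.561 with normexp without negative controls. That last setting also had a larger offset, the constant added to each corrected intensity. Its smaller difference therefore cannot be laid to the negative controls alone. In the tested set, 5.34% of probes were called higher and 6.72% lower at day 14 than in control, and 2.53% had a fitted rise of 2-fold or more. Nothing is read from the members' share against these values, since this contrast chose them.

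The probe with the highest difference, ILMN_1251419, went from background to a bright signal. Its 3 control values were 4.17, 4.23 and 4.34, a mean of 4.25 ± 0.09 (SD, n = 3). Its day 14 values were 11.60, 11.60, 11.46, 12.06 and 12.44 for replicates 1 to 5, a mean of 11.83 ± 0.41 (SD, n = 5). The deposited intensities show the same step without any correction, from 81.3 to 87.3 units on the control arrays and from 2215 to 4786 on the day 14 arrays. On the background-corrected scale the day 14 level was at least 156-fold higher than the control level. The size depends on the correction. The fitted log2 difference of 7.59 was 5.42 with no background correction. It was 5.97 with normexp at the larger offset without negative controls. At day 4 the lowest value was 4.16, the median 4.21 and the highest 6.25, and the probe was detected on replicate 3 alone. That single day 4 sample stood above the other 5 of its group, which lay between 4.16 and 4.32, and far below every day 14 sample.

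ILMN_2757617 came second. Its control values were 4.31, 4.37 and 4.28, and its day 14 values were 9.32, 8.42, 9.40, 8.84 and 9.28 for replicates 1 to 5. At day 4 it ran from 4.42 through a median of 4.55 to 4.84 and was detected on 2 of 6 arrays. The day 14 mean of 9.05 ± 0.42 (SD, n = 5) was at least 22.8-fold above control on the background-corrected scale. Its fitted log2 difference of 4.73 was 2.73 with no background correction and 3.19 with normexp at the larger offset without negative controls. No day 14 value came near those of the other groups, whose values all lay close to background.

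ILMN_2749556 and ILMN_2762935, ranks 3 and 4, were undetected on all 6 day 4 arrays as well as on the controls. ILMN_2749556 read 9.06, 8.45, 8.78, 8.72 and 8.95 at day 14, against 4.36 to 4.50 in control and 4.18 to 4.45 at day 4. On the background-corrected scale its day 14 level was at least 19-fold above control and at least 18.1-fold above day 4. Its deposited intensities were 86.3 to 93.6 units in control, 78.6 to 87.9 at day 4 and 301 to 745 at day 14. ILMN_2762935 read 8.13, 7.91, 7.49, 7.91 and 8.72 at day 14. On the same scale this was at least 11.2-fold above control and at least 10.7-fold above day 4. Its deposited intensities were 87.3 to 89.8 units in control, 84.0 to 90.3 at day 4 and 265 to 493 at day 14. The rule itself fixed their detection on the control and day 14 arrays. That day 4 detected neither was known when they were picked, so no count of samples is read from them.

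Across the 11 probes of 4-fold or more, the day 14 samples did not rise by equal amounts. Their median was 8.35, 6.81, 7.49, 7.33 and 7.45 on replicates 1 to 5, where it had been 4.30 to 4.33 on the control arrays and 4.28 to 4.45 at day 4. ILMN_1242457, rank 6, had the widest day 14 range of the 62, with 9.0, 6.24, 8.24, 7.33 and 7.68 for day 14 replicates 1 to 5, a mean of 7.70 ± 1.03 (SD, n = 5). Its day 4 values ran from 4.44 through a median of 4.59 to 5.22, with 3 of 6 arrays detecting it, and its control values were 4.26 to 4.32. ILMN_1234990, rank 7, read 8.68, 6.81, 7.20, 6.81 and 6.22, so that replicate 1 stood apart from the others. Replicate 2 gave the lowest day 14 value for 6 of the 11 probes and for 30 of all 62. Replicate 5 gave the highest for 28 of the 62, replicate 1 for 14, replicate 3 for 12, replicate 4 for 7 and replicate 2 for 1. This order of the samples depends on the scaling. The median of the 62 was 5.70, 5.12, 5.34, 5.44 and 5.55 on day 14 replicates 1 to 5. With median scaling in place of quantile normalisation it was 5.56, 5.63, 5.79, 5.38 and 4.91. With cyclic loess normalisation it was 5.66, 5.28, 5.59, 5.44 and 5.27.

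The 25 probes of 2- to 4-fold had day 14 means between 5.29 and 6.33. Their median was 5.95, 5.42, 5.93, 5.74 and 5.40 on day 14 replicates 1 to 5, against 4.27 to 4.33 on the control arrays and 4.36 to 4.49 at day 4. They stood clear of background by less, and 14 of them had a detection p above 0.02 on at least 1 day 14 array. ILMN_1225181, rank 13, was a uniform case before day 14, with 4.17 to 4.20 in control and 4.18 to 4.44 at day 4. It then read 5.71, 6.39, 5.41, 6.65 and 6.55 at day 14, at least 3.03-fold above control on the background-corrected scale. ILMN_2592415, rank 29, was uneven at day 14, with 6.48, 4.45, 5.11, 4.91 and 6.89. Among the members it came closest to the threshold on the day 14 side, with a detection p of 0.04701 on 1 array, and the nearest probes outside had 0.05021. On the control side 4 members had a detection p of 0.05021, and the nearest probe outside had 0.04915.

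The 26 probes under 2-fold changed little in size. Their day 14 means lay between 4.74 and 5.26, and none had a lower bound of 2-fold over control. On at least 1 control array, 21 of the 26 had a detection p under 0.10, against 33 of all 62. For these probes the word "on" means a crossing of the detection threshold rather than a large rise. ILMN_2941992, rank 49, read 4.22, 4.52 and 4.39 in control and 5.16, 4.54, 4.49, 5.09 and 5.26 at day 14. Day 14 replicate 3 was thus below control replicate 2 on the normalised scale, although it was detected and control replicate 2 was not. In the other 61 members every day 14 array was above every control array, as were 8.17% of tested probes, an order that the choice of members brings about.

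Of the 26 probes, 20 were highest at day 14 on replicate 5, the array with the fewest probes detected. After normalisation its detection limit was also the highest, 4.98, where the rest of the group had 4.45 to 4.65. In deposited intensities the limit was 97.5 units on replicate 5 and 97.6 on replicate 4. The median of the 26 was 4.34 to 4.44 in control and 4.40 to 4.68 at day 4. It was 4.89, 4.69, 4.73, 4.95 and 5.36 on day 14 replicates 1 to 5, and stood 0.25 to 0.37 above each array's own limit. That margin holds for the normalised scale, where replicate 5 had the largest. On the log2 of the deposited intensities the median margin was 0.077, 0.128, 0.132, 0.083 and 0.053, smallest on replicate 5. With median scaling in place of quantile normalisation, 4 of the 26 were highest on replicate 5, and with cyclic loess normalisation 12. The part of these array differences in the result was not tested.

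Membership depended on single arrays. Another 296 probes missed the rule on exactly 1 array, with 105 missing it on day 14 replicate 5 and 98 on control replicate 2. Without day 14 replicate 5 the rule took 167 probes, and without control replicate 2 it took 160. Leaving out any other control or day 14 array gave 69 to 89. The 62 are therefore the probes that also pass on the day 14 array with the fewest probes detected, and not a full list of what differed in the other samples.

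The question for day 4 was whether the probes were already raised at the earlier time. On the 6 day 4 arrays, 16 of the 62 probes were detected on none, 7 on 1, 12 on 2, 15 on 3, 7 on 4, 4 on 5 and 1 on all 6. By array, the number of members detected was 25, 16, 23, 25, 23 and 18 for replicates 1 to 6, or 25.8% to 40.3%. Of the 29876 other probes that were undetected on every control array, 2.06% to 5.66% were detected on the same arrays. Those other probes include many that no array detected, whereas each member had to be detected on 5. Day 4 replicates 2 and 6, which detected the fewest probes of any kind, also detected the fewest members.

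The probe detected on every day 4 array was ILMN_3154419, rank 25. Its day 4 values ran from 4.85 through a median of 5.06 to 5.32, all above its control values of 4.25, 4.42 and 4.44. At day 14 it read 6.14, 4.96, 6.26, 5.93 and 5.09, so that replicates 2 and 5 fell among the day 4 samples. The day 4 mean exceeded control by 0.70 on the log2 scale (SE 0.249), with an adjusted p of 0.139 in limma's moderated test over all 14916 probes.

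Day 4 and control did not separate for any member by that test. The rule used the control arrays, so it leans this comparison towards higher day 4 values. The fitted difference of day 4 over control was above 0 for 54 of the 62 members, against 53.8% of all tested probes, with a median of 0.17 and a range from -0.07 to 0.70. No member passed an adjusted p of 0.05 in limma's test, where 4.74% of all probes passed, 1.83% higher and 2.91% lower at day 4. At an unadjusted p under 0.05 there were 6 members, against 15.9% of all probes. The lowest adjusted p, 0.0865, was that of ILMN_2727432, rank 47, which averaged 4.35 ± 0.08 (SD, n = 3) in control, 4.85 ± 0.28 (SD, n = 6) at day 4 and 4.96 ± 0.13 (SD, n = 5) at day 14. When only the control and day 4 arrays were fitted, ILMN_3154419 passed with an adjusted p of 0.0153. Without day 4 replicate 3, ILMN_2727432 passed with an adjusted p of 0.0422.

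Between day 4 and day 14 most of the probes rose. In limma's test 43 of 62 were higher at day 14 and 0 were lower, against 8.47% higher and 8.57% lower among all tested probes. The rule used the day 14 arrays of this comparison and asked for detection on each of them, so these counts are not independent of the choice. At an unadjusted p under 0.05 there were 50 higher, against 13.2% of all tested probes. The median difference of the 62 was 0.94 on the log2 scale, with a range from -0.02 to 7.28, and the median of all tested probes was 0.00427. In 37 members every day 14 array lay above every day 4 array, which held for 5.47% of all tested probes.

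Calls are given by the size of the difference from control, which shares the day 14 arrays. Of all tested probes, 8.47% were called higher and 5.47% had every day 14 array above every day 4 array. All 11 probes of 4-fold or more were called and had no overlap between day 4 and day 14. Of the 25 probes of 2- to 4-fold, 23 were called and 20 had no overlap. Of the 26 under 2-fold, 9 were called and 6 had no overlap. ILMN_1251419 rose by 7.28 (SE 0.316, adjusted p = 3.327e-11) and ILMN_2757617 by 4.48 (SE 0.162, adjusted p = 2.666e-12), both higher in 5 of 5 day 14 samples. ILMN_2749556 rose by 4.44 (SE 0.121, adjusted p = 1.1e-13) and ILMN_1242457 by 2.96 (SE 0.341, adjusted p = 9.657e-06).

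The day 4 values enter both the detection at day 4 and the day 14 against day 4 call, and the rule required detection at day 14, so the following split is a description. All 16 members that were undetected on every day 4 array were called higher at day 14, with adjusted p-values up to 0.0144. Their lower bounds over day 4 were 1.19-fold to 18.1-fold on the background-corrected scale. Of the 19 members detected on 1 or 2 day 4 arrays, 14 were called, and of the 27 detected on 3 or more, 13 were called. Among all tested probes 8.47% were called higher. The 19 members not called had 17 of the probes under 2-fold, with ILMN_3154419 at 0.61 (adjusted p = 0.0610) and 1 other of 2- to 4-fold. ILMN_3160616, rank 52, had no rise in this interval. It read 4.34 to 4.46 in control, then 4.43 through a median of 4.98 to 5.23 at day 4, and 5.19, 4.62, 4.62, 5.02 and 5.06 at day 14, a difference of -0.02 (SE 0.160, adjusted p = 0.961). Its day 4 and day 14 samples overlapped throughout, and its adjusted p for day 4 against control was 0.150.

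Other probes, which have gene names, show what else moved in the same samples. All of these were detected on at least 10 arrays, and none was a member. Since the members are unnamed, they may include further probes of the same genes. The counts that follow compare day 14 with control, where 5.34% of all tested probes were higher and 6.72% lower, unless another comparison is named. Such shares also cover probes detected on as few as 3 arrays. No share was computed for probes detected on at least 10, so the counts and shares are not like for like. Of 27 probes for 18 antigen presentation and interferon response genes, 25 were higher at day 14 than in control and 0 lower, including the chemokine Cxcl9 and the interferon-induced GTPases Igtp and Gbp2. Their summed intensity was 4787 to 5334 in control, 6080 to 8712 at day 4 and 9314 to 16954 at day 14. Of 15 probes for macrophage, monocyte and dendritic cell genes, 8 were higher and 1, of Gpnmb, was lower. Among the higher were those of Lyz2, the macrophage lysozyme, whose probes may cross-react with Lyz1, and C1qb, a complement subunit. The sums over all 15 probes were 2380 to 2433 in control, 2272 to 3957 at day 4 and 4470 to 8141 at day 14. The brightest of them, a Lyz1 probe at 10.08 in control and 12.16 at day 14, weighs most in these sums. The other Lyz1 probe was not called, at 5.50 in control and 5.26 at day 14. Probes of Mrc1, Apoe, Arg1, Retnla and Cd163 were not called, and that of Cd163 was lower at day 14 than at day 4. Of 13 proliferation probes, 6 were higher, with sums of 703 to 967, 399 to 822 and 1236 to 1771. Of 12 probes for skin and keratinocyte genes, 0 were higher and 10 lower at day 14, with sums of 31213 to 41464, 26396 to 36779 and 13123 to 21841 in control, day 4 and day 14. The 12 did not move together, since at day 14 against day 4, 2 were higher and 7 lower. Among all tested probes 8.47% were higher and 8.57% lower there. Krt27 had means of 12.49, 5.31 and 11.29 in control, day 4 and day 14, and Sprr1a 9.75, 6.78 and 8.27. Krt10 and Krt14, keratins of the epidermis, were bright in control, at 12.74 and 12.48. Only 3 of the 20 mesothelial and mesothelioma genes listed had a named probe, of which 1 was higher. For T and natural killer cells 1 of 5 probes was higher, and only 5 of the 45 genes listed had a named probe. Probes higher at day 14 than in control were 5 of 12 for chemokines and cytokines, 4 of 12 for endothelium and 8 of 27 for extracellular matrix (with 4 lower). They were 0 of 17 for skeletal muscle, 0 of 6 for nerve and erythroid cells and 0 of 1 for B cells, with 0 lower in each. With 1 lower in each, they were 0 of 3 for neutrophils and mast cells, 0 of 10 for hypoxia and stress and 0 of 7 for oncofetal genes. Of the muscle probes, 5 were higher at day 4 than in control and 7 lower at day 14 than at day 4, with sums of 4502 to 10916, 12610 to 27953 and 3093 to 24179 in control, day 4 and day 14. Of 5 adipose tissue probes, 3 were lower at day 14 than in control and 5 lower than at day 4, with sums of 2654 to 3294, 3076 to 6438 and 878 to 1655. With median scaling the calls fell to 9 higher interferon, 2 higher macrophage, 2 higher proliferation and 0 lower skin probes. Over all tested probes these calls fell from 797 to 157 higher and from 1003 to 46 lower. All 27 interferon probes still had a fitted difference above 0, and 0 of 12 skin probes did. At day 14 against day 4 the calls fell to 0 lower muscle and 2 lower adipose probes. Over all tested probes the lower calls there fell from 1278 to 103. The part of immune, dividing, skin, muscle or fat cells in the members' signal was not tested.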

How the data were processed

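Total RNA was hybridised as biotin-labelled cRNA, per the labels' protocols. For each probe, the deposited table gave every array's linear intensity with its detection p-value, per the file headers. Its p-values moved in steps of 1 over 936, the number of negative controls this implies. The export software is not given in the sources used here. A second deposited table of log2 values covered 7016 probes and 0 members. Its columns for control replicates 1 and 2 matched each other's intensities, which moves no sample between groups.

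Intensities were corrected with normexp (neqc, offset 16), quantile-normalised and log2-transformed (limma 3.58.1, R 4.3.3). Probes with detection p under 0.05 on at least 3 arrays were tested, 14916 in all. Every member passes this by its rule. A 3-group model over 14 arrays was fitted (lmFit, eBayes, two-sided, Benjamini-Hochberg over all tested probes, adjusted p under 0.05). The script was tested on simulated data. The members, size classes and gene lists were chosen with earlier results of these data known. The rule for named probes, with no gene names, took the 2 members with the highest day 14 minus control difference. Alternatives were other background corrections, normalisations, filters, array weights, a replicate block and each array left out. Normexp without negative controls was run with an offset above 16. The precision of an array value is limited by the number of arrays.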

Additional observations from a re-analysis of the deposited data

Results flagged for a closer look

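For ILMN_1251419, day 4 replicate 3 read 6.25 on the log2 scale. The other 5 day 4 samples lay between 4.16 and 4.32, and this gap exceeded Dixon's limit. It was the only such sample among 13 measures examined, and chance marks about 1 group in 20.

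The difference from control was larger at day 14 than at day 4 for both probes named by rule, by 7.28 on the log2 scale for ILMN_1251419 and by 4.48 for ILMN_2757617. Both differences were tested as day 14 against day 4, in which the controls cancel, and the day 14 arrays had also chosen the probes.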

How the results depend on the processing

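The count of 62 probes fell to 29 when control arrays had to have a detection p of 0.10 or more, and was 48 at a threshold of 0.01. Leaving out 1 array at a time gave 69 to 167 probes. The median difference between day 14 and control, 1.16, was 0.416 with no background correction. It was 0.561 with normexp at a larger offset without negative controls. It was 1.05 to 1.24 with 1 array left out. At a detection p under 0.01, 27 members were undetected at day 4 instead of 16, and 16 to 18 with 1 day 4 array left out. Between 40 and 46 members were higher at day 14 than at day 4 under other corrections, scalings, filters and weights, and 41 to 48 with 1 array left out. Of the 43, 40 were called in each fit with 1 array left out, and 29 passed with a minimum of 2-fold. Median scaling moved the median of all probes in this comparison to 0.11 and called 40. With a replicate block 43 were called, and 0 between day 4 and control. Deviations of same-numbered samples had correlations of -0.30 to 0.25, and those of other pairs -0.48 to 0.45. The replicate numbers thus showed no sign of pairing, which does not exclude it. The numbers of control replicates 1 and 2 were also uncertain, which touches this check and the replicate block. For day 4 against control, 1 member was called when only these 2 groups were fitted, and 0 to 1 with 1 array left out. The causes of these changes were not tested. An alternative chosen after seeing the data, without day 14 replicate 5 and day 4 replicate 2 together, called 40 and 0. The other scalings of the 26 dimmest probes were also chosen after seeing the data, with 4 and 12 in place of 20 highest on day 14 replicate 5. The second table covers 0 members and the files name no slides, so these alternatives were not run. Signal close to background limits the probes under 2-fold.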
